A study of Mus musculus with 6 samples.

Results

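Of 39429 gene probes on an Agilent whole mouse genome array, 13 probes belong to 10 genes that mark retinal ganglion cells or build their axons: the transcription factor genes Pou4f1, Pou4f2, Pou4f3 and Isl2, the axonal protein genes Nefl, Nefm, Nefh and Sncg, the RNA-binding protein gene Rbpms and the surface glycoprotein gene Thy1. They were taken as every probe, control spots aside, whose gene name in the scanner files is one of these symbols. All 13 stood well above background in both colours on all 6 arrays. Retinas came from 8-week-old male C57BL/6 mice and were taken 7 days after titanium dioxide nanoparticles were injected into the vitreous body of the right eye. They were given at a dose called PTC in the labels, which do not spell the letters out, and at 10 times that dose, called 10PTC. Control eyes received phosphate-buffered saline (PBS). Each group had 12 mice, no group carried a genetic change, and 4 retinas were pooled per tube, so that a value is that of a pool and the spread between single animals cannot be seen. The 3 PTC and 3 10PTC pools each lay on an array of their own in Cy5, with PBS control RNA in Cy3 on the same array. Values are log2 of nanoparticle over PBS, and the ratio is tested against 0. The sources used here do not say whether a single control RNA served all arrays. If it did, the spread of the controls themselves is left out. Limma p-values measure the spread between pools, with 1 estimate taken over both doses, and 6 arrays limit how precise they can be. The PTC pools of the members were further apart than the 10PTC pools. Isl2, for example, had an SD of 0.36 at PTC and 0.07 at 10PTC, but a standard error of 0.115 at each dose. The shared error is thus narrow for the PTC pools and wide for the 10PTC pools.

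Retinal ganglion cells are the output neurons of the retina: they lie next to the vitreous, and their axons run through the optic nerve to the brain. The POU-domain factors Pou4f1, Pou4f2 and Pou4f3 and the LIM-homeodomain factor Isl2 act in their development and stay expressed in adult ganglion cells or subsets of them. Their axons are filled by neurofilaments, which are built from the light, medium and heavy chains encoded by Nefl, Nefm and Nefh, and by the small soluble protein gamma-synuclein, encoded by Sncg. Thy1 and Rbpms are used to count ganglion cells, Thy1 as a surface protein that other cells carry too and Rbpms as an RNA-binding protein that in the neural retina marks nearly all of them. In bulk RNA of a whole retina, fewer ganglion cells and less RNA per ganglion cell cannot be told apart. RNA of a member gene that other cells make is counted with it.

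Sequences of 2 neurofilament probes are given because the results below turn on them: Nefm is the member that did not pass the test at either dose, and Nefh was read by a second probe. Both are 60 bases long and are written 5′ to 3′ from the scanner files, with mm9 coordinates of the array design. The Nefm probe A_51_P145220 lies on the minus strand at chr14:68738193-68738252, and the Nefh probe A_55_P2099790 on the minus strand at chr11:4839396-4839455.
Nefm probe: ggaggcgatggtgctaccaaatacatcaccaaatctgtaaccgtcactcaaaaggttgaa
Nefh probe: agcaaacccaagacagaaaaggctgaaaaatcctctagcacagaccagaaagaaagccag
Of the 10 members, 4 matched an entry in the RefSeq promoter table (GRCm38.p6), and the 250 bases before the start of 3 of them are shown, 2 transcription factor genes and an axonal gene, all called lower at both doses. E-boxes, the letters CANNTG, are the sites of basic helix-loop-helix factors such as Atoh7, the factor needed to form ganglion cells, and stand in capitals. Pou4f1 lies at chr14:104468000-104468249 (minus strand), Pou4f2 at chr8:78436648-78436897 (minus strand) and Sncg at chr14:34374670-34374919 (minus strand).
Pou4f1: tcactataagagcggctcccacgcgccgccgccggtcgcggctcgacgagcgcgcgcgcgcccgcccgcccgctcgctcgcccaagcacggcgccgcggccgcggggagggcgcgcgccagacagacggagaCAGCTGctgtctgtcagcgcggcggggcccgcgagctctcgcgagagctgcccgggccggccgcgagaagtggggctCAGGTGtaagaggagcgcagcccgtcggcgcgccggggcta
Pou4f2: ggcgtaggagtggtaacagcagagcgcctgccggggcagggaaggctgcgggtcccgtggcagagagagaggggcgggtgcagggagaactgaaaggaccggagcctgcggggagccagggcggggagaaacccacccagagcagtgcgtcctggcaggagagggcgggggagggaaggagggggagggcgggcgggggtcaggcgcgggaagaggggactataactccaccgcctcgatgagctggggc
Sncg: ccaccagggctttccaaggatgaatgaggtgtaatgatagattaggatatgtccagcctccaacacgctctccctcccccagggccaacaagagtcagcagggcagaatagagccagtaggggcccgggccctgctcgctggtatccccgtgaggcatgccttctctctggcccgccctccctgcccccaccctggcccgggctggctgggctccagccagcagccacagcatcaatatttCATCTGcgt
The E-box reads the same on both strands. Pou4f1 held 2, Sncg held 1, and Pou4f2 and Isl2, the fourth match, held 0; 66.2% of 32851 promoters of the same length hold at least 1. The letters TATAAA, searched on both strands, were in none of the 4 windows and in 12.4% of all, and TAATTA, the core that homeodomain factors bind, in none of the 4 and in 4.8% of all. No E-box overlapped another motif searched. The 4 windows were richer in G and C than the median promoter, with 78.0% in Pou4f1, 70.8% in Pou4f2, 66.8% in Isl2 and 61.6% in Sncg, against 52.4%.

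The first question was whether the ganglion cell genes differed from PBS at the lower dose. At PTC 9 of the 10 genes fell and none rose, with limma adjusted p between 0.00251 and 0.0187 for those called; Nefm was not called. Over all genes tested, 16.3% were called lower and 16.9% higher at this dose. The median of the 10 log2 ratios was -0.51, against -0.00076 for the 26134 genes tested with 1 probe each. By probe, 12 of 13 were called lower, against 15.9% of all 32490 probes lower, 17.1% higher and 33.0% in either direction. At 10PTC 9 of the 10 genes again fell and none rose, against 13.3% of all genes lower and 14.5% higher, and the median was -0.43, against -0.00044. By probe it was 10 of 13, against 12.9% of all probes lower, 14.7% higher and 27.5% in either direction. The 9 genes other than Nefm were below 0 on all 6 arrays, as were 21.2% of all genes.

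The arrays did not weigh equally in these counts. The median of the 10 members was -0.83, -0.33 and -0.43 in PTC replicates 1, 2 and 3 and -0.37, -0.43 and -0.62 in 10PTC replicates 1, 2 and 3. PTC replicate 1 stood apart and gave the lowest of the 6 values for all 10 members. It was also the array with the highest median of 10 microglia markers (1.76) and the lowest of 12 rod markers (-0.19), and the part of these in the result was not tested. Without it 8 members were called lower at PTC, Nefh no longer among them (adjusted p = 0.0607), and Pou4f2 (-0.42), Isl2 (-0.41), Nefl (-0.39), Nefh (-0.35) and Nefm (-0.15) moved by more than 1.5 times. The 10PTC count changed with each of its arrays: 1 member was called without 10PTC replicate 1, 4 without replicate 2 and 0 without replicate 3. PTC replicates 1 and 2 were on slide 1, and PTC replicate 3 with all 10PTC arrays on slide 2. Within slide 1 none of the members was called at PTC, with values of -0.82 to -0.37, and 3 (Pou4f1, Isl2 and Rbpms) were called within slide 2, where the lone PTC array is taken to have the spread of the 10PTC arrays. With the slide as a block, 9 members were called lower at PTC and 0 at 10PTC, where their values lay between -0.83 and -0.27 and the adjusted p between 0.0618 and 0.316. With arrays centred on their median and no loess, 8 members were called lower at PTC and 5 at 10PTC. Values that this moved by more than 1.5 times were, at PTC, Sncg (-0.29), Thy1 (-0.26) and Nefm (-0.13), and at 10PTC, Pou4f1 (-0.39), Nefl (-0.36), Nefh (-0.17), Sncg (-0.19), Rbpms (-0.14), Thy1 (-0.055) and Nefm (0.047). Calls over all 32490 probes moved with these settings too, and the members' counts are to be read beside them. With an array left out, the 10713 calls at PTC became 6075 to 9812 and the 8949 at 10PTC became 1587 to 11249. Those of the other settings are given in the closing section. The dyes were not swapped on any array, so that a dye effect on a gene cannot be told apart from the treatment in the comparisons with PBS.

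**Figure D1:**
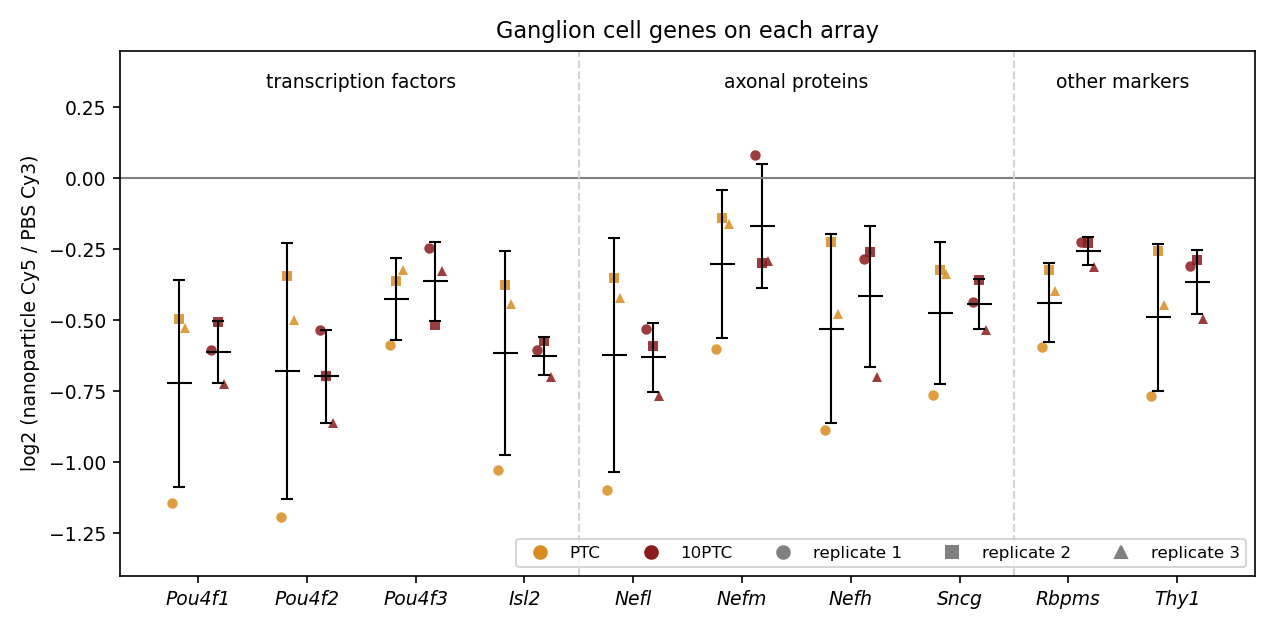
Log2 ratio of nanoparticle (Cy5) over PBS (Cy3) for the 10 genes, 1 probe a gene, with a point per array (PTC left of 10PTC, shapes for the replicates) and bars for the mean ± SD of 3 arrays a dose. The points of 9 genes lie below 0 on every array; Nefm crosses 0 in 10PTC replicate 1, and PTC replicate 1 is the lowest point of each gene.

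Among the transcription factors, Pou4f1 (also called Brn3a), which is kept by most adult ganglion cells, had ratios of -1.14, -0.50 and -0.53 in the 3 PTC pools and -0.60, -0.51 and -0.72 in the 3 10PTC pools. All 6 pools were below PBS, and the doses overlapped. The mean was -0.72 ± 0.36 at PTC (SD, n = 3; limma adjusted p = 0.00493) and -0.61 ± 0.11 at 10PTC (SD, n = 3; adjusted p = 0.0112), which is 39.4% and 34.5% below PBS. Pou4f2 (Brn3b), the factor that ganglion cells need to survive development and to extend axons, had -1.19, -0.34 and -0.50 in the PTC pools and -0.53, -0.70 and -0.86 in the 10PTC pools. PTC replicate 1 and 10PTC replicate 3 were its lowest pools, and again none lay above PBS. It averaged -0.68 ± 0.45 at PTC (adjusted p = 0.0123) and -0.70 ± 0.16 at 10PTC (adjusted p = 0.0143).

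Isl2, which marks ganglion cells with axons that cross to the other side of the brain, had -1.03, -0.38 and -0.44 in the PTC pools and -0.60, -0.57 and -0.70 in the 10PTC pools. Its 10PTC pools were close together, and both means passed the test, with -0.62 ± 0.36 at PTC (SD, n = 3; limma adjusted p = 0.00731) and -0.63 ± 0.07 at 10PTC (adjusted p = 0.00913). Pou4f3 (Brn3c), which is kept by a smaller subset of ganglion cells, had -0.59, -0.36 and -0.32 in the PTC pools and -0.24, -0.52 and -0.33 in the 10PTC pools. It was lower in all pools and passed at both doses, with -0.42 ± 0.14 at PTC (adjusted p = 0.00514) and -0.36 ± 0.14 at 10PTC (adjusted p = 0.0113). Its probe was dim, with a Cy3 signal of 114 to 125, background included, where the median background was 26 to 29. An offset of 50 added to both channels draws the ratio of a dim probe towards 0. With an offset of 0 Pou4f3 lay at -0.75 at PTC and -0.60 at 10PTC, both called. On the scanner software's processed signals it lay at -1.08 at PTC and at -0.78 at 10PTC, the 10PTC value no longer called (adjusted p = 0.0931).

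The neurofilament chains did not share a single value. Nefl, the light chain on which the other chains assemble, had -1.10, -0.35 and -0.42 in the PTC pools and -0.53, -0.59 and -0.77 in the 10PTC pools. All 6 pools were below PBS, with means of -0.62 ± 0.41 at PTC (SD, n = 3; limma adjusted p = 0.0116) and -0.63 ± 0.12 at 10PTC (adjusted p = 0.0143). Nefh, the heavy chain of large axons, had -0.89, -0.23 and -0.48 in the PTC pools and -0.28, -0.26 and -0.70 in the 10PTC pools. Its means were -0.53 ± 0.33 at PTC (adjusted p = 0.0187) and -0.41 ± 0.25 at 10PTC (adjusted p = 0.0486). The 10PTC value was close to the threshold and was called in 12 of 23 alternative settings. The second Nefh probe, whose sequence is given above, read -0.50 at PTC (adjusted p = 0.00892) and -0.38 at 10PTC (adjusted p = 0.0274), and the 2 probes were between 0.042 and 0.13 apart on an array.

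Nefm, the medium chain, had -0.60, -0.14 and -0.16 in the PTC pools and 0.08, -0.30 and -0.29 in the 10PTC pools. PTC replicate 1 was its lowest pool, and 10PTC replicate 1 the only pool of any member above PBS. The mean of -0.30 ± 0.26 at PTC (SD, n = 3) had a limma adjusted p of 0.0669 (-0.15 and 0.277 without PTC replicate 1), and that of -0.17 ± 0.22 at 10PTC an adjusted p of 0.274. The 95% intervals, -0.55 to -0.049 at PTC and -0.42 to 0.083 at 10PTC, hold changes as large as those of several members that passed. With arrays centred on their median and no loess, the 10PTC mean was 0.047, so that its direction is not settled at this dose. The probe is spotted 10 times on each array, of which 8 to 10 spots were kept, and the spots of an array had an SD of 0.011 to 0.040. The value above 0 in 10PTC replicate 1 was shared by all 8 of its spots, which read 0.068 to 0.098. Nefl lay below Nefm on 6 of 6 arrays, with a difference of -0.32 ± 0.15 at PTC and -0.46 ± 0.16 at 10PTC (SD, n = 3 each), which was not tested. In the RefSeq gene table Nefl and Nefm are neighbours on chromosome 14, with only Gm19216 between them.

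**Figure D2:**
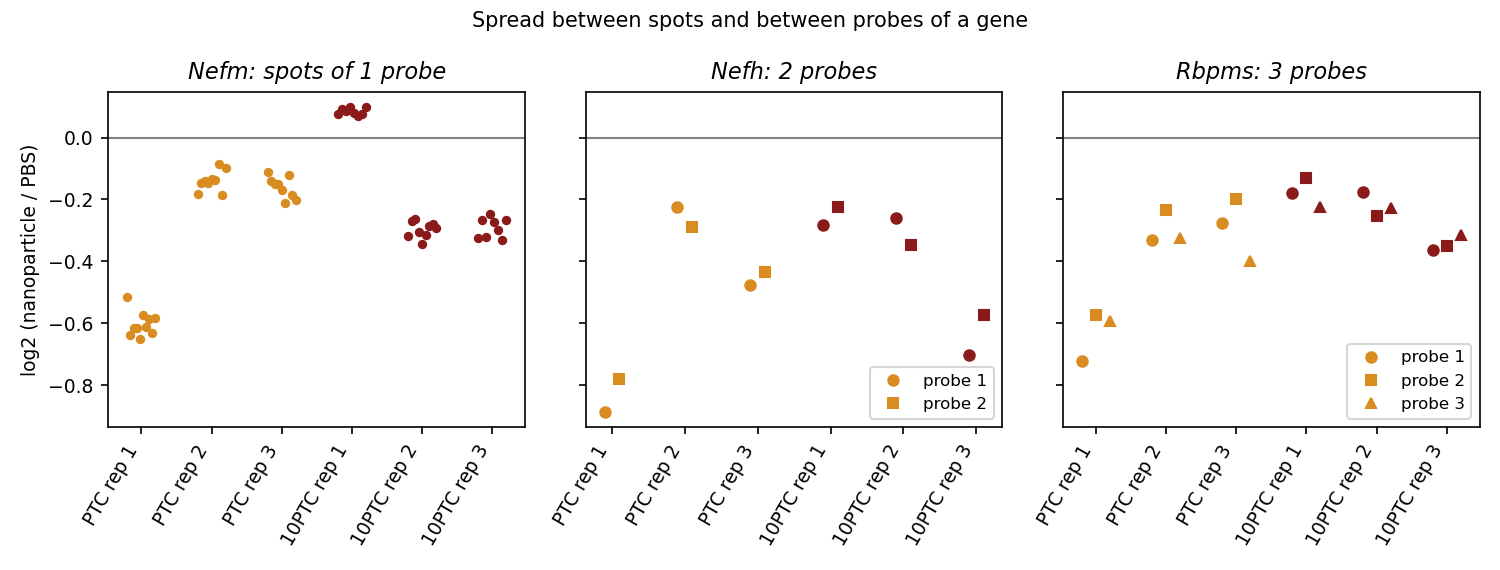
Log2 ratio of nanoparticle over PBS on each array for the single spots of the Nefm probe (left), the 2 Nefh probes (middle) and the 3 Rbpms probes (right), with PTC arrays in orange and 10PTC arrays in dark red. The Nefm spots of an array lie within a narrow band (SD 0.011 to 0.040). The spots of PTC replicate 1 and of 10PTC replicate 1 lie apart from those of all other arrays. Those of PTC replicates 2 and 3 overlap, as do those of 10PTC replicates 2 and 3.

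Sncg encodes gamma-synuclein, which is abundant in ganglion cell bodies and axons. It had -0.76, -0.32 and -0.34 in the PTC pools and -0.44, -0.36 and -0.53 in the 10PTC pools. It was lower in all 6, with means of -0.47 ± 0.25 at PTC (SD, n = 3; limma adjusted p = 0.00717) and -0.44 ± 0.09 at 10PTC (adjusted p = 0.0118). Fat cells express Sncg as well, and 7 of 9 fat cell markers fell at each dose, with medians of -0.70 at PTC and -0.73 at 10PTC; their summed signal, as log2 of nanoparticle over PBS, was between -1.42 and -1.03 across PTC pools and between -1.56 and -1.34 across 10PTC pools. All 9 were measured above background, and the lowest was Cfd, the gene of adipsin, at -3.64 ± 0.82 at PTC and -3.77 ± 0.11 at 10PTC. Adipoq, the gene of adiponectin, lay at -1.88 ± 0.16 at PTC and -1.84 ± 0.05 at 10PTC, and on the processed signals at -4.09 and -3.88. With those signals the median of the list was -1.22 at PTC and -1.42 at 10PTC. The part of fat cell RNA in the Sncg values was not tested. Sncb, which encodes beta-synuclein and is made by many neurons, fell to -0.24 ± 0.09 at PTC (SD, n = 3; limma adjusted p = 0.0110). At 10PTC it lay at -0.13 ± 0.05 and did not pass (adjusted p = 0.0975). After median centring it lay at -0.064 at PTC, where it was no longer called, and above 0 at 10PTC (0.082).

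Rbpms was read by 3 probes. The brightest, A_55_P2097448, which is designed on transcript variant 3, had -0.59, -0.32 and -0.40 in the PTC pools and -0.23, -0.23 and -0.31 in the 10PTC pools. On this probe the 10PTC pools all lay above the PTC pools. With 1 probe a gene, Rbpms was the only member whose doses did not overlap, and among all genes 8.91% had 10PTC above PTC without overlap. The probe averaged -0.44 ± 0.14 at PTC (SD, n = 3; limma adjusted p = 0.00251) and -0.26 ± 0.05 at 10PTC (adjusted p = 0.0183). The other 2 probes, on variant 1, read -0.44 and -0.34 at PTC, both called (adjusted p 0.00892 and 0.0170), and -0.24 and -0.24 at 10PTC, neither called (adjusted p 0.0789 and 0.0557). On these 2 probes the doses overlapped, with PTC pools up to -0.28 and -0.20 and 10PTC pools down to -0.36 and -0.35. The 3 probes were between 0.049 and 0.20 apart on an array. Rbpms is also made by smooth muscle cells: of 8 smooth muscle and pericyte markers 3 rose and 1 fell at PTC, and 1 rose and 1 fell at 10PTC, with medians of 0.24 and 0.16. Desmin, Des, was the one that fell at each dose (-0.58 ± 0.04 at PTC and -0.54 ± 0.05 at 10PTC; -2.28 and -1.69 on the processed signals), and the summed signal of the 7 markers measured on every array lay between 0.034 and 1.23 at PTC and between 0.047 and 0.22 at 10PTC. The part of smooth muscle cells in the Rbpms values was not tested. The 8 skeletal muscle genes described below fell at each dose too, and the part of skeletal muscle in the Des values was not tested.

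Thy1, a small glycoprotein anchored in the membrane, had -0.77, -0.26 and -0.45 in the PTC pools and -0.31, -0.29 and -0.49 in the 10PTC pools. All were below PBS, and the doses overlapped. The means were -0.49 ± 0.26 at PTC (SD, n = 3; limma adjusted p = 0.00752) and -0.36 ± 0.11 at 10PTC (adjusted p = 0.0252). The 10PTC value was called in 16 of 23 alternative settings, and after median centring it was -0.055 (adjusted p = 0.614). Mouse T cells and fibroblasts carry Thy1 too. Of 6 T cell markers measured (Cd3g was well above background on too few arrays), 1 rose and 1 fell at PTC and 2 fell at 10PTC, with medians of -0.018 and 0.00089 and a summed signal of -0.14 to -0.065 at PTC and -0.40 to -0.21 at 10PTC. Of 6 fibroblast markers, Col3a1 alone fell at PTC (-1.68 ± 0.58) and 5 fell at 10PTC, with medians of -0.32 and -1.20. The PTC median ran from -0.57 to 0.056 with a PTC array left out, and 1 gene was called lower at 10PTC without replicate 1 and 1 without replicate 3. Their summed signal ran from -1.51 to -0.092 over the PTC pools and from -1.56 to -0.85 over the 10PTC pools. The part of these cells in the Thy1 values was not tested.

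The members were then set side by side as transcription factors and axonal proteins. The mean of Pou4f1, Pou4f2, Pou4f3 and Isl2 was -0.61 ± 0.33 at PTC and -0.57 ± 0.08 at 10PTC, and that of Nefl, Nefm, Nefh and Sncg -0.48 ± 0.31 at PTC and -0.41 ± 0.14 at 10PTC (SD, n = 3 each). Without PTC replicate 1 the PTC means were -0.42 for the transcription factors and -0.30 for the axonal proteins. The mean of the transcription factors was below that of the axonal proteins on 6 of 6 arrays, with differences of -0.15, -0.13 and -0.10 in the PTC pools and -0.20, -0.20 and -0.08 in the 10PTC pools. The mean difference was -0.13 ± 0.03 at PTC and -0.16 ± 0.07 at 10PTC (SD, n = 3 each). It is a description of these 8 genes and was given no test. The groups overlapped gene by gene on every array, since on each at least 1 axonal gene lay below at least 1 transcription factor gene. With the main processing Nefm and Pou4f3 pulled the difference in opposite directions. Without Nefm among the axonal proteins the difference was -0.068 at PTC and -0.079 at 10PTC. Without Pou4f3 among the transcription factors it was -0.19 and -0.23. The direction for Pou4f3 changed with the setting. On the processed signals Pou4f3 was the lowest of the 4 transcription factors at PTC (-1.08) and at 10PTC (-0.78). With an offset of 0 it was the lowest at PTC (-0.75) and the highest at 10PTC (-0.60). On the processed signals the difference was -0.36 at PTC and -0.32 at 10PTC, and after median centring -0.20 and -0.29. All 4 transcription factors were called lower at both doses after median centring, and of the 4 axonal genes 2 were at PTC and 1 at 10PTC. On the processed signals and on the authors' table, 2 of the 4 transcription factors and 2 of the 4 axonal genes were called lower at 10PTC. Within slide 1 the difference was -0.14 at PTC and within slide 2 -0.10.

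**Figure D3:**
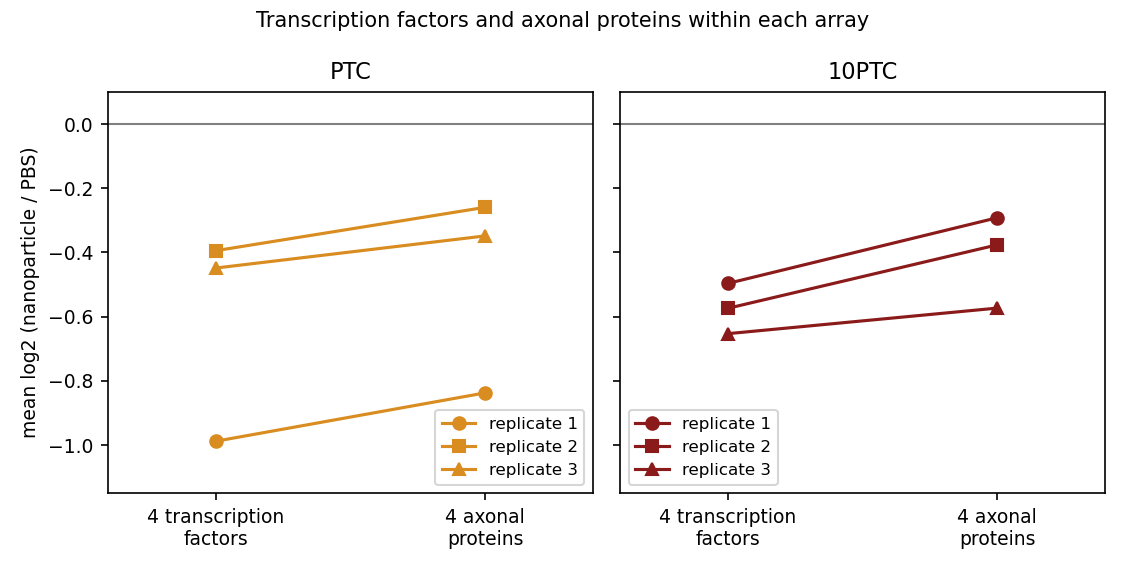
Mean log2 ratio of nanoparticle over PBS of the 4 transcription factor genes and of the 4 axonal protein genes on each array, joined by a line, for PTC (left) and 10PTC (right). Every line rises to the right, by 0.08 to 0.20, and PTC replicate 1 lies lowest for both gene groups.

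Ordered by the mean over the 6 arrays, from lowest to highest, the members ran Pou4f2, Pou4f1, Nefl, Isl2, Nefh, Sncg, Thy1, Pou4f3, Rbpms and Nefm. None of the 9 neighbouring pairs in this order differed by more than the SD of their within-array difference. Of the ends of the order, Pou4f2 lay below Nefm on 6 of 6 arrays, with a difference of -0.38 ± 0.20 at PTC and -0.53 ± 0.11 at 10PTC (SD, n = 3 each), which was not tested. The order changed with the setting. On the processed signals Pou4f3 was the lowest member at PTC (-1.08) and at 10PTC (-0.78). Rbpms lay there at -0.63 at PTC, below Nefl (-0.61) and Nefh (-0.52). At 10PTC Rbpms lay at -0.36, above Nefl (-0.62) and Nefh (-0.40). Nefm stayed the highest at both doses (-0.35 and -0.19). The genes whose values over the 6 arrays were closest to the median of the members, by root mean square difference on the log2 scale, were Kcna1, a potassium channel of axons (0.048), Nrip3 (0.052), Nsg1, a protein of neuronal endosomes (0.055), Chrnb3, a subunit of the nicotinic acetylcholine receptor (0.057), and Rbpms2, the paralog of Rbpms that also marks ganglion cells (0.057). Among the members themselves this distance ran from 0.070 for Sncg to 0.29 for Nefm. Rbpms2 lay at -0.88, -0.26 and -0.40 in the PTC pools and -0.46, -0.47 and -0.65 in the 10PTC pools. Its PTC mean was -0.51 and, without PTC replicate 1, -0.33.

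The next question was whether the dose made a difference. None of the members was called between 10PTC and PTC, with limma adjusted p from 0.629 to 0.995, and none reached an unadjusted p of 0.05; of all 32490 probes, 0% were called in either direction (0 of 32490). The differences, 10PTC minus PTC, ran from -0.019 in Pou4f2 (95% interval -0.50 to 0.47) to 0.18 in Rbpms (-0.0089 to 0.37). A p above the threshold does not show that the doses acted alike, and a difference inside these intervals could be missed. In none of 22 alternative settings was a member called between the doses. The sign of the difference turned in at least 1 of these settings for 9 of the 10 members, and stayed above 0 in all of them for Rbpms alone.

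Genes of the same cells outside the members were taken from lists. The counts of every list, those above included, stand against the shares over all genes tested. These were 16.3% lower and 16.9% higher at PTC, and 13.3% lower and 14.5% higher at 10PTC. Of 16 other genes listed as ganglion cell genes, 11 fell and 2 rose at PTC and 12 fell and 2 rose at 10PTC, with medians of -0.36 and -0.34. The list holds Atoh7, the factor needed to form these cells, and Isl1. Isl1 is also in the list of bipolar cell genes below, and its fall at PTC (-0.33, limma adjusted p = 0.0290) counts in both. Tubb3, the neuronal beta-tubulin stained to count ganglion cells, fell to -0.52 ± 0.11 at PTC and -0.52 ± 0.16 at 10PTC (SD, n = 3; limma adjusted p 0.00247 and 0.00342). Chrnb3 fell (-0.50 ± 0.18 at PTC and -0.45 ± 0.14 at 10PTC), as did the transcription factor gene Ebf1 (-0.43 ± 0.23 and -0.35 ± 0.04). The 2 that rose at each dose were Elavl4, an RNA-binding protein of neurons (0.17 ± 0.05 at PTC and 0.28 ± 0.03 at 10PTC), and Gap43, a growth cone protein (0.22 ± 0.15 and 0.21 ± 0.06). Without PTC replicate 1 the PTC count was 8 lower and 1 higher, with a median of -0.22, and after median centring the counts were 9 lower and 3 higher at PTC and 6 lower and 3 higher at 10PTC. On the processed signals 6 fell and 1 rose at 10PTC, and with a 10PTC array left out 1 to 3 fell there. The PTC call of Gap43 was lost without PTC replicate 1 (0.14) or 3, and that of Elavl4 without PTC replicate 2 or 3. At 10PTC, Tubb3, Eomes, Kif1b, Ecel1, Atf3 and Vsx1 stayed called with any 1 array left out, and the other called genes named from the lists of neurons lost the call without at least 1. Median centring moved Tubb3 to -0.29 and Ebf1 to -0.18 at 10PTC, Gap43 to 0.38 at PTC and 0.43 at 10PTC, and Elavl4 to 0.34 and 0.50; on the processed signals Chrnb3 lay at -0.80 and -0.69.

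Genes that mark single ganglion cell types did not share one direction. Of 16, 7 fell and 2 rose at PTC and 5 fell and 2 rose at 10PTC, with medians of -0.21 and -0.093. The 2 that rose were a smaller share than that of all genes called higher (16.9% at PTC and 14.5% at 10PTC). At 10PTC 1 fell and 2 rose on the processed signals, with an offset of 0 and on the authors' table, and 1 to 2 fell and 0 to 1 rose with a 10PTC array left out. After median centring 5 fell and 4 rose at PTC and 5 fell and 3 rose at 10PTC (medians -0.13 and -0.033). Eomes, a factor of the melanopsin ganglion cells, fell to -0.57 ± 0.20 at PTC and -0.65 ± 0.05 at 10PTC (SD, n = 3; limma adjusted p 0.00216 and 0.00199). The melanopsin gene Opn4 fell to -0.27 ± 0.08 at PTC and -0.19 ± 0.09 at 10PTC (adjusted p 0.00864 and 0.0362), and on the processed signals it lay at -0.69 and -0.36. Mmp17, a metalloproteinase gene, fell to -0.49 ± 0.16 at PTC and -0.26 ± 0.10 at 10PTC, where median centring gave -0.056. The genes that rose were Spp1, which encodes osteopontin and marks the large alpha cells (2.02 ± 1.15 at PTC and 1.51 ± 0.04 at 10PTC), and Kcng4, a potassium channel subunit of the same cells (0.34 ± 0.30 and 0.53 ± 0.12). Without PTC replicate 1 Kcng4 lay at 0.17 at PTC and was not called (adjusted p = 0.119), nor was it without PTC replicate 3 or without any 1 of the 10PTC arrays. On the processed signals it lay at 0.82 at 10PTC. Macrophages and microglia make Spp1 too: 9 of 10 microglia markers rose at each dose, with medians of 1.29 at PTC and 1.08 at 10PTC and a summed signal of 0.78 to 1.76 over the PTC pools and 0.92 to 1.11 over the 10PTC pools. Their part in the Spp1 value was not tested.

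The other intermediate filaments of neurons moved in opposite directions. Ina, alpha-internexin, which assembles with the neurofilament chains, fell to -0.60 ± 0.31 at PTC (SD, n = 3; limma adjusted p = 0.00655) and -0.37 ± 0.14 at 10PTC (adjusted p = 0.0416). Prph, peripherin, best known from peripheral nerves, rose by 0.42 ± 0.35 at PTC (adjusted p = 0.0330) and 0.52 ± 0.17 at 10PTC (adjusted p = 0.0187). Without PTC replicate 1, Prph lay at 0.24 at PTC and was not called (adjusted p = 0.111), and the call was also lost without PTC replicate 3, 10PTC replicate 1 or 10PTC replicate 2. After median centring Ina lay at -0.13 at 10PTC. Of 22 genes of the axonal cytoskeleton and its transport, 8 fell and 3 rose at PTC and 3 fell and 2 rose at 10PTC, with medians of -0.12 and -0.012, and without PTC replicate 1 it was 5 and 1 at PTC (median -0.024). The 10PTC counts were near or below the shares over all genes, 13.3% lower and 14.5% higher. This list turned with the scaling: after median centring 2 fell and 10 rose at PTC and none fell and 13 rose at 10PTC (medians 0.10 and 0.25), while the 4 genes named next kept their direction. Stmn3, a stathmin that destabilises microtubules, fell to -0.56 ± 0.25 at PTC and -0.50 ± 0.11 at 10PTC, and Mapt, the microtubule-associated protein tau, to -0.50 ± 0.28 and -0.36 ± 0.12; median centring gave -0.21 for Stmn3 and -0.089 for Mapt at 10PTC, and -0.35 and -0.30 at PTC. Kif1b, a kinesin motor of axonal transport, rose by 0.53 ± 0.11 at both doses, and the spectrin gene Sptan1 by 0.15 ± 0.05 at PTC and 0.30 ± 0.05 at 10PTC. The PTC call of Sptan1 was lost with each of the 6 arrays left out, and median centring gave it 0.38 at PTC and 0.60 at 10PTC and gave Kif1b 0.86 at 10PTC. Of 13 genes known to be induced in injured or regrowing neurons, 6 rose at each dose and none fell, with medians of 0.33 at PTC and 0.44 at 10PTC; without PTC replicate 1 it was 4 at PTC (median 0.19), without replicate 2 9 and without replicate 3 2. With a 10PTC array left out 2 to 3 rose at 10PTC. After median centring 9 rose at PTC and 11 at 10PTC, and on the processed signals 4 and 3. The endopeptidase gene Ecel1 lay at 2.81 ± 0.89 and 2.82 ± 0.39, the transcription factor gene Atf3 at 1.07 ± 0.62 and 1.31 ± 0.13 and Stat3 at 0.52 ± 0.38 and 0.64 ± 0.09 (PTC, then 10PTC). Without PTC replicate 1 Stat3 lay at 0.31 at PTC, and its PTC call was lost without PTC replicate 3. The part of cells other than neurons in the values of these injury genes was not tested.

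Other retinal neurons were described the same way, against 16.3% of all genes lower and 16.9% higher at PTC and 13.3% and 14.5% at 10PTC. At PTC 5 of 8 horizontal cell genes, 6 of 12 amacrine cell genes and 7 of 12 bipolar cell genes fell and none rose, with medians of -0.32, -0.26 and -0.31. Without PTC replicate 1 these medians were -0.21, -0.16 and -0.17, with 4, 5 and 5 genes lower and 1 horizontal cell gene higher, and without PTC replicate 3 they were -0.34, -0.30 and -0.38, with 2, 5 and 5 lower and 1 bipolar cell gene higher. At 10PTC 2, 4 and 4 of them fell and none rose, with medians of -0.21, -0.13 and -0.21, and with a 10PTC array left out 0, 0 to 1 and 1 to 2 fell. After median centring the PTC counts were 1 lower and 2 higher for horizontal, 2 lower and none higher for amacrine (median -0.065) and 5 lower and 2 higher for bipolar cells, and the 10PTC counts were 1 lower and 2 higher for horizontal, 1 lower and 3 higher for amacrine (median 0.089) and 1 lower and 3 higher for bipolar cells. Slc18a3, the acetylcholine transporter of starburst amacrine cells, lay at -0.60 ± 0.18 at PTC and -0.45 ± 0.09 at 10PTC, and Vsx1, a homeobox gene of bipolar cells, at -0.72 ± 0.22 and -0.63 ± 0.11 (SD, n = 3; limma adjusted p 0.00156 to 0.00526), where median centring gave -0.23 and -0.40 at 10PTC. Among photoreceptors, of 12 rod genes 5 rose and none fell at each dose (medians 0.12 and 0.19), with Sag, rod arrestin, at 0.88 ± 0.12 at PTC and 0.55 ± 0.28 at 10PTC. After median centring 10 rod genes rose at PTC and 11 at 10PTC (medians 0.38 and 0.55), and on the processed signals 3 rose at each dose (medians 0.052 and 0.15). The PTC median of the rod genes was 0.29 without PTC replicate 1, with 6 higher, and -0.0041 without PTC replicate 2, with 3 higher and 1 lower; with a 10PTC array left out 1 to 4 rose at 10PTC. Of 10 cone genes 2 rose and 3 fell at PTC and 1 rose and 2 fell at 10PTC, with medians of -0.071 and -0.081, and after median centring the medians were 0.13 and 0.19. The median of the members lay below that of each of these lists at both doses, which was not tested. The part of these other neurons in the neurofilament values was not tested either. The lists overlapped gene by gene: Vsx1 and Pou4f1 had the same mean of -0.72 at PTC. Among tissues around the retina, 8 of 8 skeletal muscle genes fell at each dose, with medians of -3.03 at PTC and -2.43 at 10PTC. Their part in the ganglion cell values was not tested. Of 10 Muller glia genes 4 rose and 3 fell at PTC and 5 rose and 3 fell at 10PTC, and after median centring 6 rose and 1 fell at PTC and 7 rose and 1 fell at 10PTC. Of 9 myelin genes 1 rose and 2 fell at PTC and 1 rose at 10PTC, and of 7 endothelial genes 1 rose and 2 fell at PTC and 1 fell at 10PTC.

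**Figure D4:**
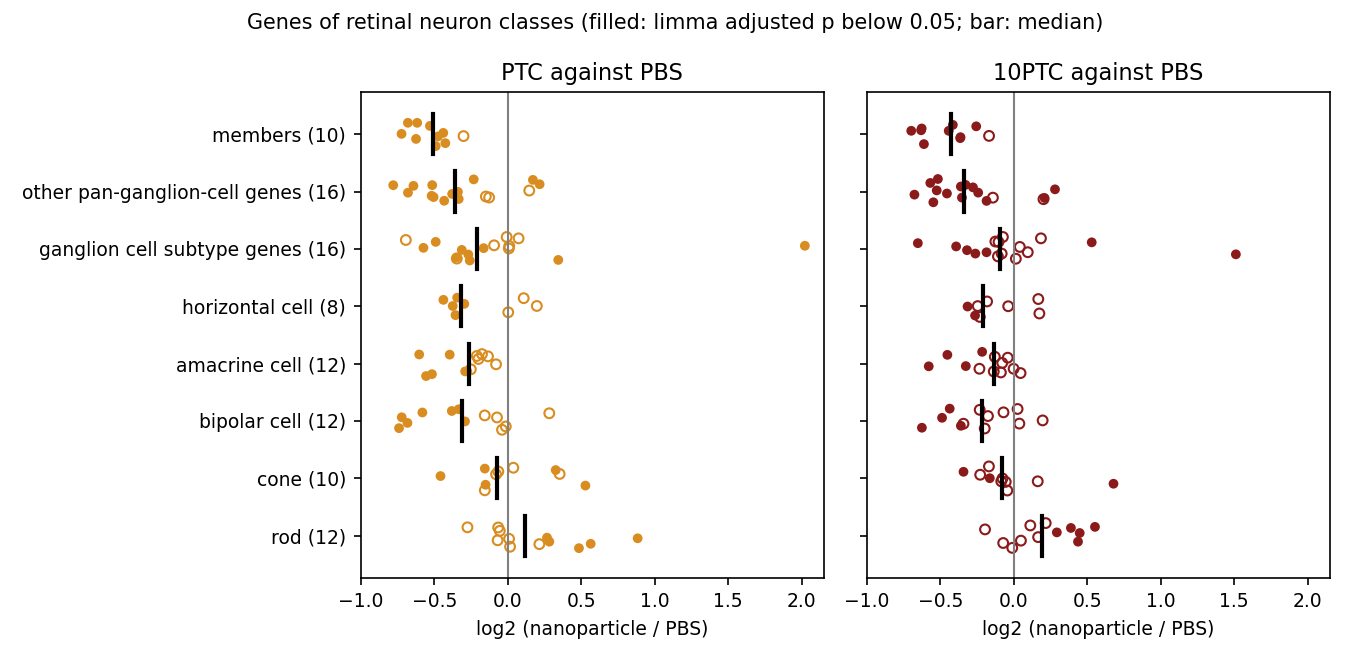
Log2 ratio of nanoparticle over PBS, a point per gene, for the 10 members and for lists of genes of retinal neurons (number of genes measured in brackets), at PTC (left) and 10PTC (right); filled points passed a limma adjusted p of 0.05 and the bar is the list's median. The members' medians are -0.51 at PTC and -0.43 at 10PTC, and the rod medians are 0.12 and 0.19.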

How the data were processed

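Pools of retinal RNA were labelled with Cy5 (nanoparticle) or Cy3 (PBS) and hybridised to 2-colour Agilent arrays (design 026655), per the labels and the file headers. The deposited scanner files hold intensity values (mean, background and processed signals) and log10 ratios, written by Feature Extraction 10.7.3.1 with protocol GE2_107_Sep09 per the file headers; version 9.3.2.1 stands in the submitters' processing notes. The authors also deposited log2 ratio values, used here as an alternative; against each array's log10 ratio they had r between 0.983 and 1.00 and a slope near 3.32, column medians were -0.075 to 0.039, and their centring stays unknown. The sources used here do not say whether 1 control RNA pool or more was used.

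Mean signals were corrected for their median background by normexp with an offset of 50, and each array was normalized by loess, the 1377 control spots having a weight of 0 (limma 3.58.1, R 4.3.3, data.table version 1.17.8). Outlier spots (185 to 274 an array) were left out and spots of a probe averaged; no gene spot was saturated. Of 39429 probes, 32490 were tested, those that were well above background in either channel in 3 or more of the 6 arrays; names came from the RefSeq gene table through the accession (26055 probes), the symbol (3195) or a synonym (930), or from the file (9249). Median signals were 187 to 347 in Cy5 (background 47 to 48) and 153 to 221 in Cy3 (background 26 to 29). Array log ratios correlated with r of 0.611 to 0.873. A limma model with 1 coefficient a dose (4 residual and 3.61 prior degrees of freedom) was fitted to all probes, with Benjamini-Hochberg adjustment over all 32490 and a threshold of 0.05. A gene is represented by its probe of highest mean intensity. On simulated data of the PTC comparison, with 32490 probes and 200 changed, the test recovered 44% of the 1.25-fold, 92% of the 1.5-fold and 100% of the 2-fold changes, with 10 false calls. The simulated noise was independent between probes and of equal spread at both doses. Far fewer probes were changed in it than the 33.0% called at PTC, so these figures need not hold for the real comparison.

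The members and lists were chosen with earlier results of these data known. Beside the members, up to 4 genes of a list with the smallest p at either dose are named, every gene of the lists of other intermediate filaments and synucleins, and the 5 genes most like the members; 1 item under this rule is not reported here. Gap43, Opn4 and Kcng4 were named after their values were seen. The replicate numbers of the doses were not taken to pair the pools. Alternatives were other background corrections, scalings, filters and probe rules, the authors' table, each dose alone, array weights, slide or replicate number as a block, single slides, trended robust moderation and each array left out. Leaving out Nefm or Pou4f3 from the group means, and refitting the lists with each array left out or on other scalings, were added after seeing the data.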

Additional observations from a re-analysis of the deposited data

How the results depend on the processing

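The sign of the PTC and 10PTC value of every member was kept in all alternatives run, with the exception of Nefm at 10PTC after median centring (0.047). The count of members called lower at PTC (9) was 0 within slide 1 and 3 within slide 2, and 8 to 9 with an array left out. The count at 10PTC (9) was 5 on the processed signals, 5 after median centring, 5 on the authors' table, 0 with the slide as a block and 0 to 9 with an array left out. Nefm was called at PTC in 1 of 24 alternatives, trended and robust moderation (adjusted p = 0.0463), and at 10PTC in 0 of 23. The transcription factor minus axonal protein difference was negative in 20 of 20 alternatives at PTC and 19 of 19 at 10PTC. At PTC and 10PTC in that order it was -0.36 and -0.32 on the processed signals, -0.24 and -0.24 with an offset of 0, -0.20 and -0.29 after median centring, -0.36 and -0.32 on the authors' table, -0.068 and -0.079 without Nefm and -0.19 and -0.23 without Pou4f3; it was -0.10 within slide 2 at PTC, -0.14 to -0.12 with a PTC array left out and -0.20 to -0.14 with a 10PTC array left out. Over all probes, the 10713 calls at PTC became 5877 with each dose fitted alone, 326 within slide 1, 1874 within slide 2 and 6075 to 9812 with an array left out. The 8949 calls at 10PTC became 5473 on the processed signals, 18097 after median centring, 5649 on the authors' table, 16088 with array weights, 1163 with the slide as a block and 1587 to 11249 with an array left out. Between the doses 0 probes were called, 2 with array weights, 2 with trended and robust moderation and 0 to 1 with an array left out. Median centring gave 10191 higher and 5110 lower at PTC, against 5559 and 5154 by loess, and 11748 and 6349 at 10PTC, against 4763 and 4186; the median of all probes was then 0.050 at PTC and 0.070 at 10PTC. The r of same-numbered deviations was -0.27, 0.14 and 0.18, and that of other pairs ran from -0.35 to 0.26. With 3 arrays a dose, these values cannot settle whether the replicate numbers pair the pools. With the replicate block 9 members were called lower at PTC and 8 at 10PTC, Nefh no longer among them (limma adjusted p = 0.0619). In that setting 8086 and 6142 probes were called against PBS, and 0 members and 0 probes between the doses. The cause of these changes was not tested. Dim signal limits Pou4f3 most, and the number of arrays limits all of the members. Other members moved with the signal used as well. At PTC, Rbpms went from -0.44 to -0.54 with an offset of 0 and to -0.63 on the processed signals. Isl2 went from -0.62 to -0.70 and -0.75. The part of probe brightness in the difference between transcription factors and axonal proteins was not tested.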
